A study of Mus musculus with 2 samples.

Results

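The genes described here are 9 chemokine and homing receptors of T cells, Ccr9, Ccr7, Ccr6, Ccr2, Cxcr3, Cxcr4, Cxcr6, S1pr1 and Gpr183. They were taken as a family by name, with every probe set that the platform annotation assigns to one of these symbols alone. This gave 18 probe sets among 34945 with a single gene symbol, and 9 genes among 18193. A probe set is a group of short oligonucleotides on the array that reads 1 transcript region. RNA came from 2 T cell preparations of C57BL/6 mouse lymph nodes, purified by negative selection, which removes unwanted cells and leaves the wanted ones untouched. One was labelled as naive CD44- gamma/delta T cells and the other as naive CD8+ alpha/beta T cells. Each was hybridised to 1 Affymetrix MOE430 2.0 array, and nothing in the labels gives the age, sex or number of the mice. With 1 array in each group there is no replicate, standard error or p-value, and each ratio below compares these 2 preparations only.

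Chemokine receptors are G protein-coupled receptors of the cell surface that steer leukocytes along gradients of small secreted proteins. The receptors a T cell carries set which tissues it can enter and stay in. Ccr7 brings naive T cells into lymph nodes, S1pr1 lets them leave again towards the lymph, and Ccr6, Ccr2, Cxcr3 and Cxcr6 are better known from cells that enter inflamed or barrier tissue. Gamma/delta cells of the IL-17-producing kind are known for carrying Ccr6 and Ccr2.

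Signals are MAS5 values on a linear scale, and the floor, below which a signal was given no order, was the higher of the array medians at 243. Signals under it were raised to it before a ratio was taken, so a ratio with 1 side under the floor is a bound. A gene or probe set is called higher where gamma/delta cells had 2 or more times the alpha/beta signal, and lower for the reverse. The gene takes the value of its brightest probe set over both arrays, also where genes under the floor are counted, and ratios are of gamma/delta over alpha/beta throughout. Spread can be measured only among probe sets that read the same gene, with a pooled SD of 0.50 on the log2 scale over 3317 genes. Over the 11914 genes with a ratio, the median log2 ratio was 0.03.

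Lineage genes with a call followed the labels. Trgv4, a gamma chain segment of the T cell receptor, read 12522 for gamma/delta against 170 for alpha/beta. Cd8a, a chain of the CD8 coreceptor, read 731 and 8852, and Cd8b1, the other chain, read 382 and 2193. Blk, the Src family kinase that the series title names, read 633 and 8.37. Of the list of gamma/delta markers, 5 of 11 matched a probe set with 1 symbol, and 5 were called higher. Of 3 measured CD8 alpha/beta markers, 2 were called lower. The third, Tcra, went the other way at 379 and 170, a log2 ratio of at least 0.64, short of the call. Of 7 general T cell markers, 2 were called higher and 0 lower. The ratio of 3′ to 5′ signal, which falls with better RNA integrity, was 6.99 against 3.12 for actin, with gamma/delta first. It was 3.06 against 3.24 for Gapdh and 3.97 against 4.47 for the transferrin receptor, so that actin alone was higher in gamma/delta cells.

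Of the 9 receptor genes, 8 had a ratio, 2 were called higher in gamma/delta cells, Ccr9 (11.8-fold) and Ccr6 (2.10-fold), and 0 were called lower. Of the 11914 genes of the array with a ratio, 5.82% were called higher and 3.93% lower. Cxcr4, Ccr2 and S1pr1 leaned towards gamma/delta cells below the call, and Ccr7, Cxcr6 and Gpr183 leaned towards alpha/beta cells below it. Cxcr3 was under the floor on both arrays. The median log2 ratio over the 8 genes was 0.44. In bulk RNA, fewer cells that carry a receptor and less of its transcript per cell cannot be told apart.

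Counted by probe set, 15 of 18 had a ratio, and 4 of these were called higher and 0 lower. Among the 20297 probe sets with 1 symbol and a ratio, 5.2% were called higher and 4.37% lower. Of the 4 higher ones, 3 read Ccr9, so that the count by probe set mostly repeats 1 gene. By direction alone 8 probe sets were above 0 and 7 below, and the median log2 ratio was 0.01.

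**Figure D1:**
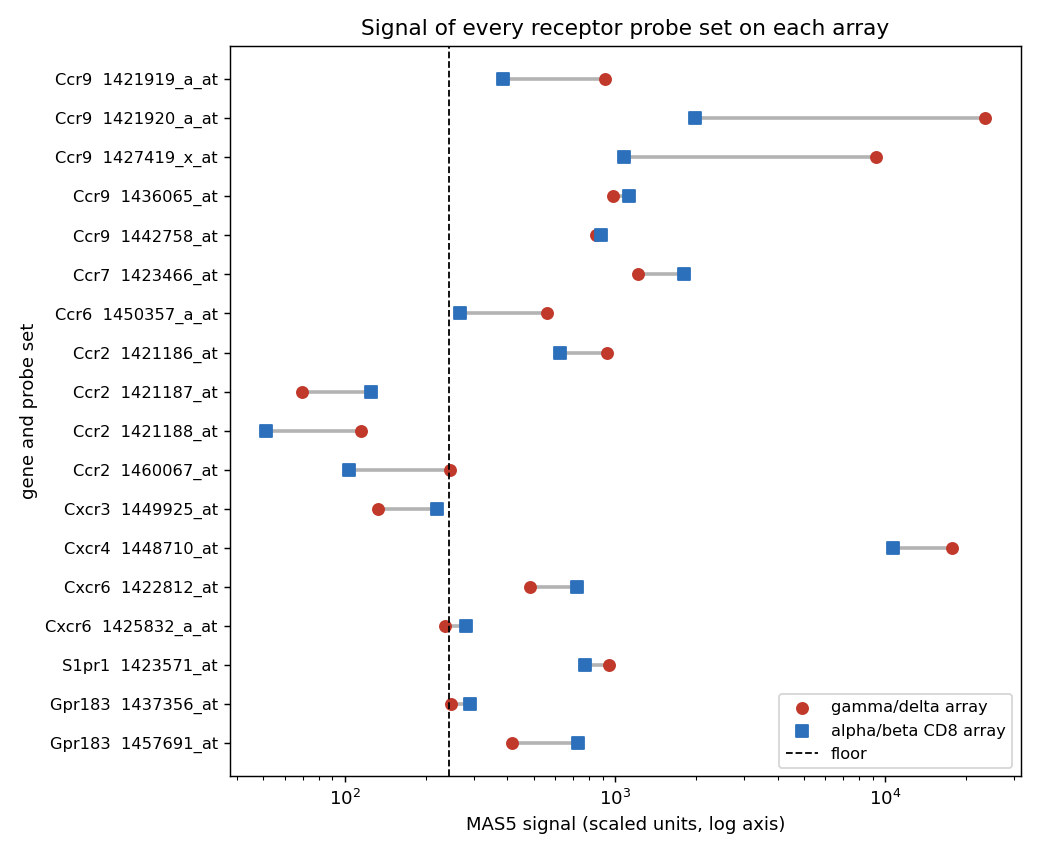
MAS5 signal (x axis, scaled units on a log axis) of each of the 18 probe sets of the 9 receptor genes (y axis), with a circle for the gamma/delta array, a square for the alpha/beta CD8 array and a dashed line at the floor of 243. The 2 widest gaps belong to Ccr9, at 23333 against 1974 and 9253 against 1078, while 2 other Ccr9 probe sets read nearly equal signals and 3 probe sets, 2 of Ccr2 and 1 of Cxcr3, are under the floor on both arrays.

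Ccr9 binds Ccl25, a chemokine of the small intestine and the thymus, and directs T cells to the gut. It gave the largest difference of the family. Probe set 1421920_a_at read 23333 in gamma/delta cells against 1974 in alpha/beta cells, a log2 ratio of 3.56. This ratio held rank 17 from the top among 11914 genes.

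The other probe sets of Ccr9 split into high and flat ones. Probe set 1427419_x_at read 9253 and 1078, 8.58-fold higher in gamma/delta cells. Probe set 1421919_a_at was dimmer, at 919 and 385, and 2.39-fold higher. Those that read the gene as about equal were 1436065_at, at 980 and 1123, and 1442758_at, at 849 and 891. Their log2 ratios were -0.20 and -0.07, which are smaller than the SD of 0.50 between probe sets of a gene.

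The 3 probe sets with a difference are listed in the annotation under mRNA records and the 2 without it under expressed sequence tags, which are short single reads of cDNA clones. The median log2 ratio was 3.10 over the former and -0.13 over the latter. All 5 lay above the floor on both arrays. Which transcript region each probe set reads was not tested. An ending of _a_at marks probes shared by transcripts of one gene, and _x_at marks probes that can also bind other sequences. Averaged over all 5 probe sets, the log2 ratio was 1.53, which keeps the 2-fold call. With every probe set ending in _a_at, _x_at or _s_at left out it was -0.20, and with those ending in _a_at kept it was 3.56.

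Ccr9 lies beside other receptor genes on its chromosome, and the difference was not shared along it. Its nearest protein-coding neighbours, Lztfl1 and Fyco1, had log2 ratios of 0.19 and -0.11, with Lztfl1 at 764 and 670 and Fyco1 at 980 and 1055. After Fyco1 the RefSeq order runs through Cxcr6 (-0.58), Xcr1, Ccr1 (0.36), Ccr1l1 and Ccr3 to Ccr2 (0.58). Xcr1, Ccr1l1 and Ccr3 were under the floor on both arrays. Within this stretch from Lztfl1 to Ccr2, Ccr9 alone reached 2-fold.

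Thymocytes are known to carry Ccr9, and some markers of immature T cells were also higher in gamma/delta cells. Of 7 markers of thymocytes and recent thymic emigrants, 3 were called higher, 0 lower, and 2 were under the floor on both arrays. Their summed signal was 41456 for gamma/delta against 4973 for alpha/beta. Dntt, the terminal transferase of lymphocyte precursors, made up most of it at 32499 and 1207, and Sox4 and Ikzf2 were the other higher ones. Of the 8 probe sets of Sox4, 2 had a ratio, at 0.02 and 1.98 on the log2 scale. The 3 of Ikzf2 ran from 0.06 to 1.20, so that both calls depend on the probe set. Cd1d1 read 868 and 536, short of the call, and Ptcra, the surrogate alpha chain of the pre-T cell receptor, read 42.8 and 267, lower in gamma/delta cells and under the floor there. The defining genes Rag1 and Rag2, which cut receptor genes in thymocytes, read 72.7 and 82.0 in gamma/delta cells against 92.2 and 137 in alpha/beta cells, all under the floor. The part of these cells in the Ccr9 difference was not tested.

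Ccr6 binds Ccl20, a chemokine of epithelium and lymphoid tissue. Its only probe set, 1450357_a_at, read 560 in gamma/delta cells against 267 in alpha/beta cells, a log2 ratio of 1.07. Ccr6 is thus just past the call, with an alpha/beta signal barely above the floor. Its rank was 575 from the top. With the floor moved to the 70th percentile of signals, at 447, the log2 ratio was at least 0.32 and the call was lost. No second probe set was at hand to set against it. B cells also carry Ccr6, and of 12 measured B cell markers 0 were 2-fold apart and 4 were under the floor on both arrays, with summed signals of 7388 and 6308. The 8 with a ratio had a median log2 ratio of 0.29, below the call but towards gamma/delta cells like Ccr6. The brightest were Ebf1 at 3331 and 2650, Ighm at 1025 and 789 and Ms4a1 at 858 and 616, while Cd79a, which every B cell carries, read 43.5 and 188, both under the floor. Fcer2a and H2-Aa leaned towards alpha/beta cells. The part of B cells in the Ccr6 difference was not tested.

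Ccr9 and Ccr6 are the receptors that stood apart, and the bases before their first start are shown with the motifs found in them in capitals. The sequences are from RefSeq, build GRCm38.p6, and 7 of the 9 receptor genes had an entry, with 8 starts in all. Each is the 250 bases before the start, 5′ to 3′ on the plus strand. The motifs were chosen after the values were seen and were searched on both strands: the E-box CANNTG, the Kruppel-like factor site CACCC, the FoxO core GTAAACA, the nuclear receptor core AGGTCA and the T-box core GGTGTGA.
Ccr9, chr9:123766961-123767210: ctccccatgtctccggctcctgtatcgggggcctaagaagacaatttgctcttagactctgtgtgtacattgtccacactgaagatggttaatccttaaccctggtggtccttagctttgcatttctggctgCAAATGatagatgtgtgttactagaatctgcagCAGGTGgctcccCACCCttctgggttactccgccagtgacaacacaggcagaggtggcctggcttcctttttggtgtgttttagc
Ccr6, chr17:8235793-8236042: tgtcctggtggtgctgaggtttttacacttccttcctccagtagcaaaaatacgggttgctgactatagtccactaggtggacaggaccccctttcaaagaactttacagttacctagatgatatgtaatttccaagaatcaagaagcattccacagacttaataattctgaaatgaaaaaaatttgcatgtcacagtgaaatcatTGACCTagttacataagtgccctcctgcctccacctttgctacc

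The window of Ccr9 held 2 E-boxes, whose first bases lie 118 and 85 bases before the start, and 1 Kruppel-like factor site at 73 bases. That of the first start of Ccr6 held 1 nuclear receptor core, read on the other strand, at 44 bases, and no E-box. The window of the other start of Ccr6, not printed here, held 2 E-boxes, at 225 and 104 bases, and no nuclear receptor core. Of 32851 such windows over all genes, 66.2% held an E-box, 52.0% a Kruppel-like factor site and 14.0% a nuclear receptor core. The FoxO core and the T-box core, found in 3.17% and 3.33% of all windows, were in none of the 8 windows of the receptor genes. No motif overlapped another in these windows. Letters in a window are a description and say nothing of what binds there.

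Ccr2 binds Ccl2 and draws cells into inflamed tissue. Its brightest probe set, 1421186_at, read 936 in gamma/delta cells against 627 in alpha/beta cells, a log2 ratio of 0.58. The gene leaned towards gamma/delta cells by little more than the SD between probe sets. The other 3 probe sets were at or under the floor: 1460067_at read 246 and 103, so that it was at least 1.01-fold higher, 1421188_at read 115 and 51.2, and 1421187_at read 69.7 and 125. With probe sets averaged, Ccr2 was under the floor on both arrays.

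Cxcr6 binds Cxcl16 and is known from effector and tissue-resident T cells. Probe set 1422812_at read 486 in gamma/delta cells against 725 in alpha/beta cells, a log2 ratio of -0.58. The dimmer 1425832_a_at read 235 and 281, under the floor in gamma/delta cells. Both probe sets were thus brighter in alpha/beta cells, neither by 2-fold.

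Cxcr3 binds Cxcl9, Cxcl10 and Cxcl11 and marks effector and memory T cells of type 1 responses. Its probe set, 1449925_at, read 133 in gamma/delta cells against 219 in alpha/beta cells. Both lie under the floor, and no ratio is given. Tbx21, the T-box factor that drives Cxcr3, read 15.7 and 18.2, also under the floor.

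Markers of effector and memory cells, which carry these receptors, and of NK cells were set beside them. Of 7 measured memory and effector markers, 4 were called higher and 0 lower, with summed signals of 23260 and 3609. The brightest of the 4 made up most of both sums, at 12531 and 2403. Of the 7 markers, 3 were under the floor in alpha/beta cells, so that their ratios are bounds. Cd44 itself, whose absence the gamma/delta label states, read 525 and 421, and its probe sets ran from a log2 ratio of -0.85 to 0.97. Of 7 measured NK cell markers, 1 was called higher, 1 lower and 3 under the floor on both arrays, and the sums were 3878 and 7775. Gzma, a granule protease, read 1442 and 73.4, Klrd1, a lectin receptor, read 1532 and 6623, and the defining marker Ncr1 read 6.76 and 155. The part of such cells in the signals of Ccr2, Cxcr3, Cxcr6 and Ccr6 was not tested.

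Of the markers of other cell types, part lay under the floor and few were 2-fold apart. Of 14 markers of myeloid and dendritic cells, which carry Ccr2, 9 lay under it on both arrays and 0 were 2-fold apart, with sums of 2279 and 2143. Lyz2 read 175 and 77.8, and Csf1r read 216 and 96.5, all under the floor. The 5 with a ratio had a median log2 ratio of -0.23. The brightest of them were S100a9, at 371 and 498, and Fcgr3, at 381 and 349. Of 6 markers of CD4 helper and regulatory T cells, 3 lay under it on both arrays and Ikzf2 alone was higher, and the sums were 5185 and 2943, with Cd4 at 180 and 185 and Foxp3 at 3.40 and 21.4. Of 7 markers of stroma and endothelium, 2 lay under the floor on both arrays, 0 were 2-fold apart and the sums were 2832 and 2956. The brightest of these was Pdpn, at 957 and 1061. The part of these cell types in the receptor signals was not tested.

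Ccr7 binds Ccl19 and Ccl21 and admits naive T cells to lymph nodes. Its only probe set, 1423466_at, read 1216 in gamma/delta cells against 1795 in alpha/beta cells, 1.48-fold higher in alpha/beta cells. The log2 ratio of -0.56 was 1.13 times the SD between probe sets, and 14.0% of genes had a lower one. Both preparations thus read clearly above the floor, with the smaller signal in gamma/delta cells.

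Cxcr4 binds Cxcl12 and serves retention in bone marrow and lymphoid organs. Probe set 1448710_at read 17628 in gamma/delta cells against 10687 in alpha/beta cells, 1.65-fold higher in gamma/delta cells, or 0.72 on the log2 scale. It was bright on both arrays. The value was 0.88 after quantile normalization and 0.91 after a lowess between arrays, both below the call.

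S1pr1 senses sphingosine 1-phosphate and lets T cells leave lymph nodes. Probe set 1423571_at read 948 in gamma/delta cells against 774 in alpha/beta cells. The log2 ratio of 0.29 was smaller than the SD between probe sets, and 68.0% of genes had a lower one. Klf2, the factor that drives S1pr1, read 2213 and 1987, a log2 ratio of 0.16. Cd69, which holds the S1pr1 protein inside the cell, was bright in both, at 17258 and 18670.

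Gpr183, also called EBI2, senses oxysterols and guides lymphocytes within lymphoid organs. Probe set 1457691_at read 414 in gamma/delta cells against 727 in alpha/beta cells, 1.76-fold higher in alpha/beta cells. The other probe set, 1437356_at, read 247 and 290, with a log2 ratio of -0.23. Both were brighter in alpha/beta cells. The log2 ratio of -0.81 of the brighter one was the lowest of the 8 receptor genes, with 6.98% of all genes with a ratio below it.

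**Figure D2:**
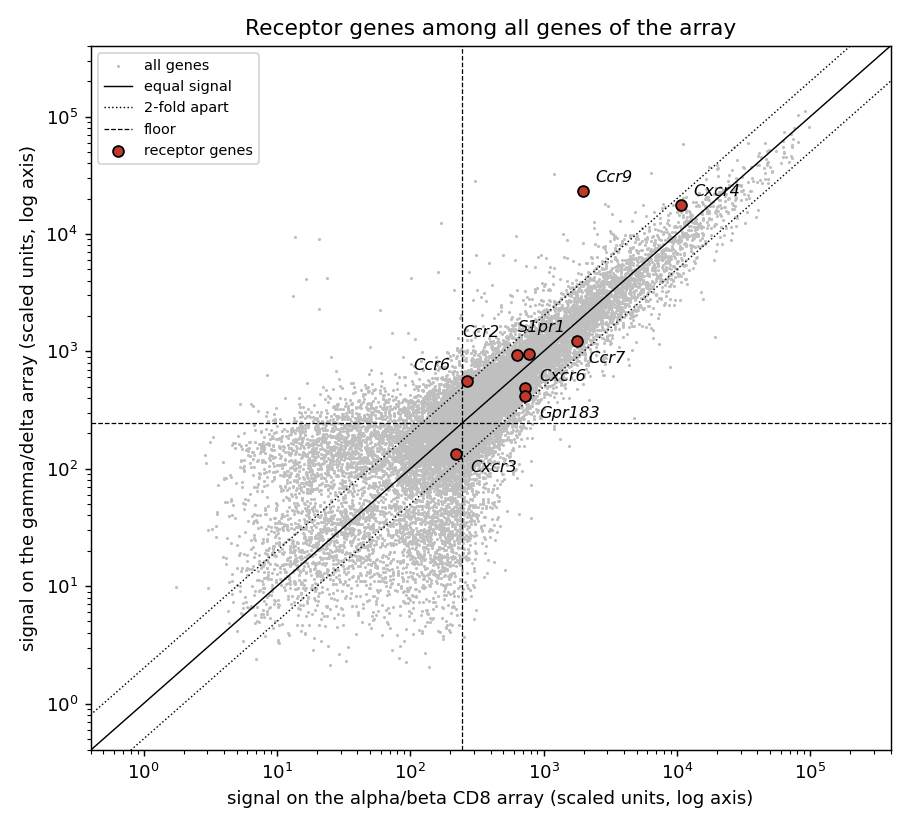
Signal on the gamma/delta array (y axis) against the alpha/beta CD8 array (x axis), both in scaled units on log axes, for all 18193 genes (grey) and the 9 receptor genes (red), with lines at equal signal, at 2-fold and at the floor of 243. Ccr9 lies far above the 2-fold line at 23333 against 1974, Ccr6 lies on it close to the floor, and the other 7 lie between the 2-fold lines.

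The share of genes 2-fold apart was larger in brighter bands. Raising signals to the floor shrinks ratios mainly among dim genes. The order of the bands therefore does not show that dim genes differ less often. By geometric mean signal over both arrays, 8.68% of genes under 1000, 11.8% of those from 1000 to 4000 and 14.1% of those at 4000 or more were called in either direction. Ccr9 and Cxcr4 fall in the brightest band, Ccr7 in the middle one, and the other receptor genes with a ratio in the dimmest.

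Other genes of the pathway were described from lists chosen for their roles. Of 15 other chemokine receptors measured, 11 were under the floor on both arrays, 0 were called higher and 1 was called lower. This was Ackr4, an atypical receptor that removes chemokines such as Ccl19 and Ccl25, at 536 for gamma/delta against 1346 for alpha/beta (2.51-fold). Averaged over its probe sets the log2 ratio was -0.61. Ccr4, Ccr8, Ccr10 and Cxcr5 were among those under the floor, as was Cx3cr1 by its brightest probe set, while its other one had a log2 ratio of -0.33. The median of the 4 with a ratio was -0.14. It was -0.69 under the 70th percentile floor, 0.08 under the 30th percentile one and 0.13 with no floor, so that no direction can be given for this list either.

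Of 11 ligands of these receptors measured, 6 were under the floor on both arrays, 1 was called higher and 0 lower, and the median of the 5 with a ratio was 0.34. The higher one was Cxcl10, an interferon-induced ligand of Cxcr3, at 736 and 168 (at least 3.03-fold), with a bound of 0.72 on the log2 scale under the 70th percentile floor. Ccl25, the ligand of Ccr9, read 656 and 373, and its 2 probe sets ran from -0.31 to 0.82. Ccl20, Cxcl12 and Cxcl16 were under the floor on both arrays. With no floor the median of the list was -0.71, so that this list has no settled direction.

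In the sphingosine 1-phosphate list, 6 of 10 genes had a ratio, 1 was called higher and 1 lower, and the median was -0.18, or 0.08 without probe sets ending in _x_at and _s_at. S1pr4, another receptor of this lipid on lymphocytes, read 950 for gamma/delta against 2051 for alpha/beta (2.16-fold lower in gamma/delta). Sphk2, a kinase that makes the lipid, read 654 and 250 (2.62-fold higher). Sphk2 lost its call with probe sets averaged (0.79) and under the 70th percentile floor (0.55). S1pr1 and S1pr4 thus leaned in opposite directions, and the difference between them was not tested. The 3 enzymes that make or break down the oxysterol ligand of Gpr183, Ch25h, Cyp7b1 and Hsd3b7, were under the floor on both arrays by their brightest probe set. Of the 3 probe sets of Cyp7b1, 1 had a ratio, at -0.05 on the log2 scale.

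Of 12 genes with a ratio for G protein coupling and receptor desensitisation, 0 were 2-fold apart in either direction and the median was -0.14, or 0.20 with probe sets averaged. Gna13 counts there by its brightest probe set, while its 7 probe sets ran from -0.25 to 2.32 on the log2 scale. Gnai2, the inhibitory G protein subunit through which chemokine receptors signal, read 1277 and 1668. Grk6, a kinase that shuts such receptors down, read 1348 and 798, and its 2 probe sets with a ratio gave 0.14 and 0.76. Of 18 chemotaxis effectors, 2 were called higher and 0 lower, at a median of 0.36, or -0.0023 with probe sets averaged. These were Was, the actin regulator of the Wiskott-Aldrich syndrome, at 596 and 230 (at least 2.45-fold), and Fermt3, which activates integrins, at 3073 and 1390 (2.21-fold). Was had a bound of 0.41 under the 70th percentile floor, and the probe sets of Fermt3 ran from -0.50 to 1.14, with an average of -0.20, so that its direction depends on the probe set. Dock2, an exchange factor for Rac that lymphocytes need to follow chemokines, read 3615 and 1973, a log2 ratio of 0.87. Its 2 probe sets with a ratio gave 0.04 and 0.87.

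Adhesion molecules complete the path from blood to tissue. Of 8 genes with a ratio for selectin ligands and their enzymes, 0 were called higher and 1 lower, at a median of 0.27. The lower one was Spn, the sialomucin CD43, at 2095 for gamma/delta against 7303 for alpha/beta (3.49-fold). Its other probe set had a log2 ratio of -0.73, in the same direction but short of 2-fold. Selplg, the ligand of P-selectin, read 3010 and 1784.

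Of 9 homing integrins, 5 were called higher and 2 lower, at a median of 1.21. The median was -0.31 with probe sets averaged and between 1.18 and 1.21 under every other setting. Averages were taken before the floor. The averaged median was the value of Itgal, for which 1 of 2 probe sets had a ratio, at 1.44. The direction of the list thus depends on whether probe sets are averaged, and is not settled. Itgb3, the beta 3 chain, read 4701 and 161, at least 19.3-fold higher on the probe set used and 0.53 on the log2 scale when averaged. The chains of the gut integrins, which act beside Ccr9, went both ways: Itgb7 read 2741 and 702 (3.91-fold higher), its partner Itgae 5383 and 735 (7.33-fold higher), and its other partner Itga4 3300 and 8524 (2.58-fold lower). The 5 probe sets of Itga4 ran from -2.48 to -0.74. Itga6, the alpha 6 chain, read 1330 and 19172 (14.4-fold lower), a log2 ratio of -3.85, which was -2.46 when averaged. Its other probe set had a log2 ratio of -1.07. Itgae had 2.35 on that scale when averaged and 1.82 without probe sets ending in _x_at and _s_at, both past the call.

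Of 10 transcription factors with a ratio that are tied to these receptors or to T cell state, 2 were called higher and 2 lower, at a median of 0.12. Foxo1, which drives Ccr7, read 1415 for gamma/delta against 895 for alpha/beta, a log2 ratio of 0.66. With probe sets averaged it was 1.65, past the call, and its 4 probe sets had ratios from 0.38 to 0.85, since the average is taken before the floor. Ccr7 leaned the other way at -0.56. Maf was 9.86-fold higher (6010 and 609) and Runx3 2.07-fold higher (1039 and 501). With probe sets averaged Maf had a log2 ratio of 1.70, still past the call, while single probe sets of Maf gave log2 ratios between 0.32 and 3.30. Runx3 had no ratio when averaged. Bach2 was 6.30-fold lower (1167 and 7351) and Satb1 2.56-fold lower (15893 and 40660), with -1.90 for Bach2 and -0.92 for Satb1 when averaged. Without the probe sets ending in _x_at, _s_at and _a_at, Bach2 had a log2 ratio of -1.73.

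**Figure D3:**
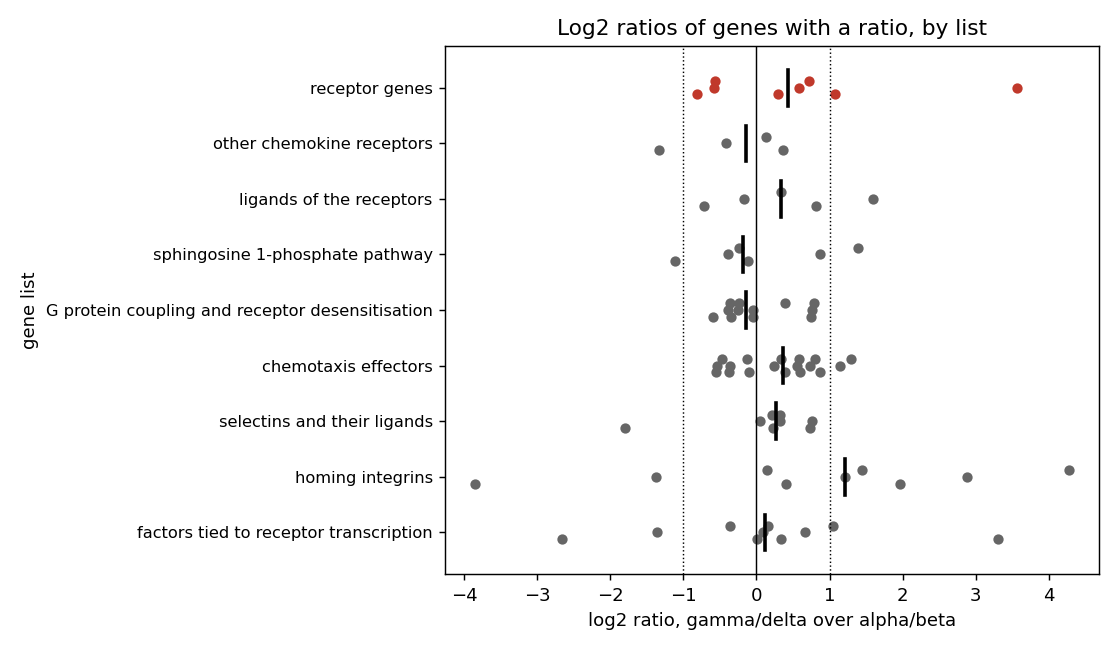
Log2 ratio, gamma/delta over alpha/beta (x axis) for the receptor genes (red) and for the genes of 8 pathway lists (grey), 1 row per list on the y axis, with bounds drawn at their value, a black bar at each median and dotted lines at 2-fold. Of the receptor genes, Ccr9 stands alone at 3.56 and the other 7 with a ratio lie between -0.81 and 1.07.

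The receptor values were compared across processing settings. Under median scaling, quantile normalization and a lowess between the arrays, each of the 8 receptor genes kept its direction and its side of the call. Some choices of other probe sets or another floor ended calls of Ccr9 and Ccr6, the only receptor genes with a call to lose. No setting added a call for another receptor gene. With no floor, 6 receptor probe sets were called higher, against 4 as reported.

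**Figure D4:**
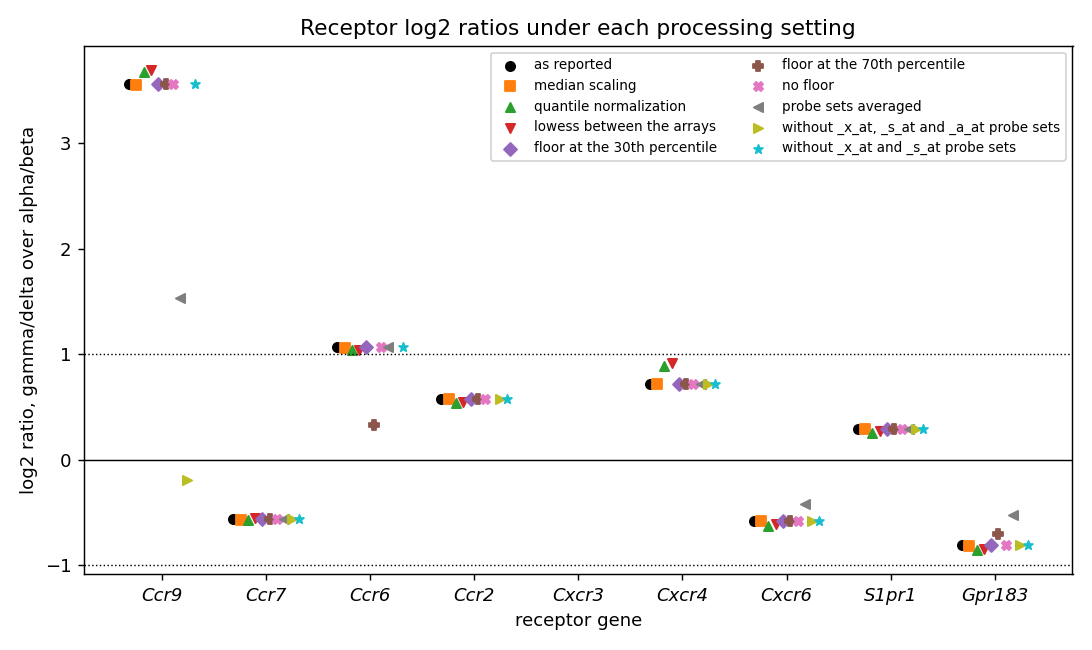
Log2 ratio, gamma/delta over alpha/beta (y axis) of the receptor genes (x axis) under the reported setting (black circle) and 9 others (coloured markers), with dotted lines at 2-fold. Ccr9 ranges from -0.20 to 3.70, Ccr6 drops to 0.32 under the higher floor, Cxcr3 has no reported value and is not drawn, and the rest stay between the 2-fold lines.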

How the data were processed

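RNA of 1 gamma/delta and 1 CD8+ alpha/beta T cell preparation was measured on 1-colour arrays. The deposited values are intensities per probe set from the authors. Per the submitters' processing notes, the software was Affymetrix Expression Console 1.0 and the method MAS5; no genome build applies. The 2% trimmed mean over all 45101 probe sets was 500.003 on each array, so the arrays shared a scale as deposited and were not rescaled. MAS5 subtracts a mismatch estimate, which makes low signals unreliable. Neither detection calls nor scanner files were used.

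No gene was named from the 64 control probe sets, the 932 with several symbols or the 9211 that the annotation does not list. Symbols came from the platform annotation, and list genes were also matched through RefSeq synonyms. Ratios were computed with pandas 2.3.3 and numpy 2.4.6 on signals raised to the floor, and the lowess (span 0.3) with statsmodels 0.14.6. No test was possible with 1 array per group, which limits the precision. The receptors, the 9 pathway lists and the 10 marker lists were chosen with earlier results of these data known. Named by rule were the 9 receptors with every probe set, up to 4 genes per list with the largest ratio past 2-fold, and Klf2, Foxo1, Tbx21, Cd69, Itga4 and Itgb7, beside items not reported here; any other gene was picked with its values known. The alternatives were 3 scalings, 2 other floors, no floor, and probe sets averaged or left out by their ending. That which keeps probe sets ending in _a_at was added after the data were seen.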

Additional observations from a re-analysis of the deposited data

How the results depend on the processing

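Of 70 receptor log2 ratios under the alternatives, 67 moved by less than the SD of 0.50 between probe sets of a gene, 2 moved further, Ccr9 to 1.53 with probe sets averaged and Ccr6 to 0.32 under the 70th percentile floor, and 1 reversed. The reversal was Ccr9 at -0.20 when the endings _x_at, _s_at and _a_at were left out. That setting leaves Ccr9 its 2 flat probe sets and Ccr6 none, so that 0 receptor genes and 0 receptor probe sets were called higher. Under the 70th percentile floor 1 receptor gene was called higher. Under no alternative was a receptor gene called lower. Over all genes, 693 were called higher and 468 lower; the counts were 1320 and 1008 for a 30th percentile floor, 396 and 284 for a 70th percentile one, and 2917 and 2593 with no floor, which admits or removes dim genes by construction. With probe sets averaged 459 were called higher. Of the other named genes, Fermt3 reversed to -0.20 and Itgal to -0.31 with probe sets averaged. Fermt3 also reversed to -0.37 without _x_at and _s_at probe sets, with or without those ending in _a_at. Averages were taken before the floor, and of the 2 probe sets of Itgal 1 had a ratio, at 1.44. The 4 probe sets of Fermt3 ran from -0.50 to 1.14. What sets the probe sets of each gene apart was not tested. The arrays give no read depth. The floor in use did not change the ratio of Ccr6 or Gpr183. The 70th percentile floor limits that of Ccr6 and, slightly, that of Gpr183 (-0.70 against -0.81). Having 1 array per group limits every ratio. No paired analysis was possible because each group has 1 array.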
